A study of Mus musculus with 18 samples.

Results

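Hormone-sensing luminal cells were compared with alveolar progenitors, the other luminal population of the mouse mammary gland, by RNA-seq. The comparison uses 12 of the 18 libraries of the series: the 6 labelled HSL (hormone-sensing luminal, also known as mature luminal) and the 6 labelled AP (alveolar progenitors, also known as luminal progenitors), each numbered 1 to 6. The remaining 6 are basal libraries and serve here only as a reference level. All mice were untreated, nulliparous, 12 weeks old and of the genotype MMTV-Cre, a transgene in which a mouse mammary tumour virus promoter drives the Cre recombinase in mammary epithelium. The labels name no second allele. Flow cytometry used CD49f, CD61 and EpCAM, with CD31, CD45 and Ter119 as antigens of other lineages. AP cells were the CD49f-lo/CD61+ cells and HSL cells the CD49f-lo/CD61- cells. Libraries were made from 2 ng of total RNA by Smart-Seq and from 150 pg of cDNA by Nextera XT, which keeps no record of the strand. The comparison asks which functions and gene families, beyond the classic lineage markers, separate the 2 luminal populations.

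The ducts and buds of the mammary gland are lined by luminal cells that rest on contractile basal cells. Hormone-sensing luminal cells carry the receptors for oestrogen, progesterone and prolactin and pass hormonal signals to their neighbours as secreted ligands. Alveolar progenitors lack most of these receptors, respond to such ligands, and give rise to the cells that make milk in pregnancy.

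Gene counts summed to between 37391691 and 62505465 in the AP libraries and to between 26516293 and 52404937 in the HSL libraries. The first principal component of the 12 libraries held 55% of the variance and separated the populations, and the HSL library of sample 1 lay between them. The second, with 15.1%, set both libraries of sample 1 apart from the other 10. Values without sample 1 are given beside several of the results that it moves. In bulk libraries such as these, fewer cells of a type and less RNA per cell cannot be told apart. The labels do not say whether libraries with the same sample number came from the same mouse. Sample number was fitted as a block, so p-values measure how far the difference between HSL and AP varied across sample numbers. They need not measure the spread between mice. Levels are given as CPM, a gene's count relative to the scaled library size, as the lowest, the median and the highest of 6 libraries. They depend on gene length and are compared only between libraries.

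Levels of the gate genes and of lineage markers were checked first. Itgb3, which encodes CD61, ranged over 17.0, 43.2 and 77.8 CPM in AP and over 0.108, 0.627 and 1.61 CPM in HSL, a difference set by the gate itself. Itga6, which encodes CD49f, had medians of 215 CPM in AP and 274 CPM in HSL (adjusted p = 0.224, and 0.00593 without sample 1), and Epcam had medians of 3649 and 3087 CPM (adjusted p = 0.236). Among the markers of the 2 populations, all 15 tested of 16 listed AP markers were lower in HSL and all 18 HSL markers were higher, beside 28.0% and 24.1% of all tested genes. These lists were chosen with earlier results of these data known, so the counts are no independent check. Kit, the receptor of stem cell factor, and Elf5, the ETS factor of alveolar cells, were 16.9-fold and 8.61-fold lower in HSL (adjusted p = 0.000328 and 4.1e-05). Prlr, the prolactin receptor, and Foxa1, the forkhead factor of hormone-sensing cells, were 5.31-fold and 4.88-fold higher (adjusted p = 7.92e-05 and 6.82e-05). Esr1, the oestrogen receptor, and Pgr, the progesterone receptor, were 4.11-fold and 5.31-fold higher (adjusted p = 7.38e-05 and 6.11e-05). Of the span of Prlr, 13.8% is shared with another gene, and of Itga6 11.4%. Among genes named below, shared spans were 10.2% for Cox5a, 10.3% for Abcc8, 11% for Muc13, 13.6% for Hpgd, 14.6% for Wnt5a, 16.4% for Gcnt2, 16.9% for Pkm, 18.3% for Ncam1 and 27.6% for Tgfb3, and those above 10% are given beside the other genes.

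Of 15285 genes tested, 7963 (52.1%) passed an adjusted p of 0.05. Of all tested genes, 24.1% were higher in HSL (3684) and 28.0% were lower (4279). The share with a change of at least 2-fold was 9.05% for the higher genes (1383) and 15.5% for the lower genes (2363). The 6 HSL libraries did not overlap the 6 AP libraries for 21.7% of the tested genes, 9.09% with HSL above AP and 12.6% with HSL below. These shares are the background for every list and family below, and the median log2 fold change of all tested genes was -0.05.

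The 2 directions differed in size as well as in number. Higher genes had a median log2 difference of 0.78, with 95% of them under 2.43. Lower genes had a median of -1.16, with the 5% most extreme beyond -4.09. At 4-fold or more there were 480 higher and 1313 lower genes, and at 8-fold or more 34 and 714. At 16-fold or more there were 0 higher and 243 lower genes, and 44 of the lower genes passed 32-fold. All 243 tested genes that reached this size in edgeR were lower, so the 0 did not depend on the threshold for p. At an adjusted p under 0.05, limma-voom called 0 higher and 187 lower genes at that size. DESeq2 called 9 higher and 302 lower genes. Without sample 1 the counts at 16-fold were 1 and 422. Over all 16 alternative settings the count at 16-fold ranged from 0 to 33 for higher genes and from 118 to 554 for lower genes, and the lower genes were the more numerous in each.

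**Figure D1:**
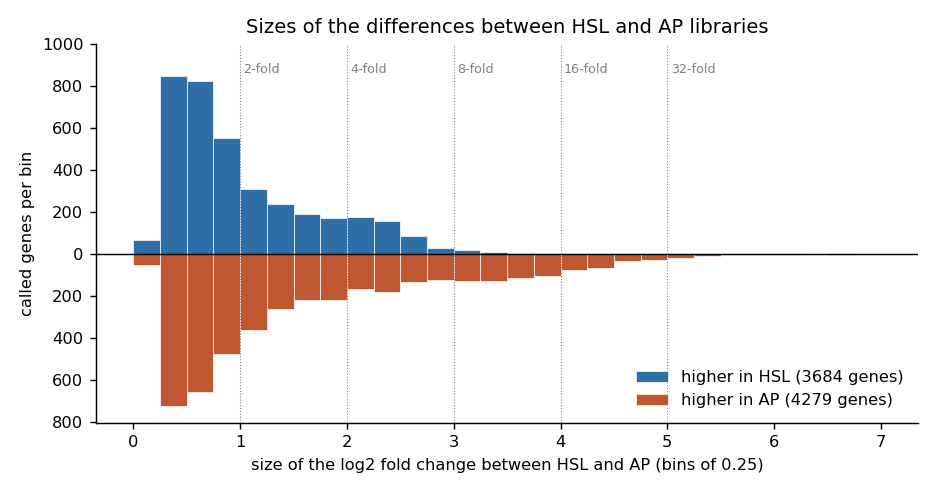
Number of called genes (y axis) by the size of their log2 fold change between HSL and AP in bins of 0.25 (x axis), with genes higher in HSL above the line and genes higher in AP below it. The blue bars end before the 16-fold line, and 243 genes of the orange bars lie at or beyond it.

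The level that remained in the other population was compared within each sample. Genes higher in HSL by at least 2-fold were at a median of 24.7% to 43.8% of their HSL level in the AP libraries of samples 2 to 6, and at 27.7% in sample 1. The genes lower in HSL by at least 2-fold were at a median of 15.9% to 24.1% of their AP level in the HSL libraries of samples 2 to 6, and at 41.9% in sample 1. In samples 2 to 6 the second share was thus the smaller, and in sample 1 it was the larger. The HSL markers summed to 1926 to 6565 CPM in AP, 11477 to 22624 CPM in HSL and 1079 to 1879 CPM in basal libraries. The AP markers summed to 15144 to 35522 CPM in AP, 1117 to 3671 CPM in HSL and 3115 to 5999 CPM in basal libraries. The part of cells of one luminal population in libraries of the other was not tested. Only 4 genes were at 10 CPM or more on average in one population and under 0.5 CPM in the other, and all 4 were on in AP. They were Cyp24a1, the enzyme that degrades active vitamin D, Pinc, a long noncoding RNA of the mammary gland, Trf, the iron carrier transferrin, and Adcy5, an adenylate cyclase. Pinc was at 1.08, 10.8 and 25.7 CPM in AP and at 0, 0.0993 and 0.287 CPM in HSL (log2 fold change -6.67, SE 0.55, adjusted p = 6.28e-05). Other genes, on either strand, share 52.1% of the span of Pinc and 99.5% of that of Trf. Reads in such spans carry no record of the strand, and how they were counted is not given.

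The share of the counts held by called genes was also measured. Genes higher in HSL by at least 2-fold held 24.5% to 27.7% of the counts of HSL libraries 2 to 6. Their share was 15.5% in HSL library 1 and 4.42% to 11.2% in the AP libraries. Genes lower in HSL by at least 2-fold held 16.6% to 21.5% of the counts of the AP libraries and 3.09% to 6.66% of those of the HSL libraries. The genes were chosen from these same libraries, so the direction of both gaps was set by the choice. Among genes that reached 1000 CPM in the population where they were higher, 52.6% were higher in HSL and 30.8% lower. Among genes at 1 to 10 CPM, 16.7% were higher and 29.4% lower. Of protein-coding genes 25.7% were higher and 29.9% lower, and of long intergenic noncoding genes 19.5% and 24.2%.

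Promoter sequences of 4 genes are shown because their levels carry the ligand, transport and mucin results below and because each holds a TATA box close to the start site. Agt encodes angiotensinogen and Muc1 a membrane mucin, both lower in HSL, while Areg encodes the growth factor amphiregulin and Slco2a1 a prostaglandin carrier, both higher in HSL. Each window covers 250 bases before and 50 after the start of transcription in RefSeq (GRCm38.p6), written along the gene's strand. Capitals mark the letters TATAAA. The windows lie at chr8:124569657-124569956 (minus strand) for Agt, chr3:89228806-89229105 (plus) for Muc1, chr5:91139349-91139648 (plus) for Areg and chr9:103008237-103008536 (plus) for Slco2a1.
Agt: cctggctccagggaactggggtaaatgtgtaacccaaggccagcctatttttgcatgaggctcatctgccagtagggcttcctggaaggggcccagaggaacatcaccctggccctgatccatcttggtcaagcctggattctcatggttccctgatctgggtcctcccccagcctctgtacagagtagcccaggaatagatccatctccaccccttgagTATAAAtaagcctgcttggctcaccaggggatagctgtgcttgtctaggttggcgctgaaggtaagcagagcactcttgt
Muc1: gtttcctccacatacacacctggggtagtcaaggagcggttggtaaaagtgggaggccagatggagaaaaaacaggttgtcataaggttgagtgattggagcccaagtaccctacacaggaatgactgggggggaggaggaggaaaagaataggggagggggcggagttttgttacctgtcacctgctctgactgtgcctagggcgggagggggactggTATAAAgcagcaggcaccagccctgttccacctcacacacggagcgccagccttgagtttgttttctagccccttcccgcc
Areg: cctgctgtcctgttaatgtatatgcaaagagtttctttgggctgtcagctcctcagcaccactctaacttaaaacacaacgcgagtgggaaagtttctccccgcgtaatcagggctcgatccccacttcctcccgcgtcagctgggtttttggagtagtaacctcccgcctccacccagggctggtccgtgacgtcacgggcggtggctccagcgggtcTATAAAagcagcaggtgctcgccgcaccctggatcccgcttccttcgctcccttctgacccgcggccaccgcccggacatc
Slco2a1: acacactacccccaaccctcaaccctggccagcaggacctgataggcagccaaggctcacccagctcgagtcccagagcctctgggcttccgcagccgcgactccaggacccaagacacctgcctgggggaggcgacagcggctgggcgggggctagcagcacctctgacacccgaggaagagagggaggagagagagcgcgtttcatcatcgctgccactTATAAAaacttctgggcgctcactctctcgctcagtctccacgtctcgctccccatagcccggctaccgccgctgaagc
The box begins 30 bases before the start site in Agt, 31 in Muc1 and Areg, and 29 in Slco2a1. Searched on both strands, TATAAA was found in the windows of 8.94% of the tested genes that have one, of 11.1% of genes higher and 12.0% of genes lower in HSL by at least 2-fold, and of 17.0% of those lower by at least 16-fold. It was found in 13.6% of all windows of the table. The forkhead motif TGTTTAC was found in 3.15% of tested genes, in 5.09% of the higher and 3.35% of the lower genes at 2-fold, and in 3.65% of all windows. A match is a description of the letters and not of a bound site.

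Membrane carriers differed in both directions. Of 237 tested solute carriers, the family of membrane carriers for ions and metabolites, 79 were higher in HSL (33.3%) and 64 lower (27.0%). Over all tested genes the shares were 24.1% and 28.0%. Slc12a2, the sodium, potassium and chloride cotransporter that loads secretory epithelia with chloride, was at 590, 3671 and 6062 CPM in AP and at 4578, 20155 and 22058 CPM in HSL, 5.6-fold higher (SE 0.22 on the log2 scale, adjusted p = 7.45e-05). Both of its lowest values are those of sample 1, and the HSL value of sample 1 lies among the AP values of the other samples. Slc7a2, a carrier of arginine and other cationic amino acids, was at 38.9, 196 and 355 CPM in AP and at 364, 1209 and 1591 CPM in HSL, 6.16-fold higher (adjusted p = 9.87e-05). Sample 1 was again the lowest on each side, and the groups did not overlap. Slco2a1, which clears prostaglandins into the cell, was 4.66-fold higher (adjusted p = 6.23e-05). In the other direction Slc28a3, a nucleoside carrier, was at 105, 274 and 690 CPM in AP and at 2.5, 6.75 and 14.1 CPM in HSL, 36.5-fold lower (adjusted p = 0.000431). Slc5a8, a carrier of short fatty acids and lactate, was 9.87-fold lower (adjusted p = 7.38e-05).

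Of 41 potassium channels 13 were higher (31.7%) and 10 lower (24.4%), all by at least 2-fold. Over all tested genes 24.1% were higher and 28.0% lower at any fold. Kcnk5, an acid-sensitive leak channel, was 14.2-fold lower (adjusted p = 8.3e-05), and Kcnn4, a calcium-activated channel, was 15.5-fold lower (adjusted p = 6.65e-05). Abcc8, the sulfonylurea receptor that forms a potassium channel with another subunit, was 5.56-fold higher (adjusted p = 4.96e-05). The water channel Aqp5 was 4-fold higher (adjusted p = 4.1e-05). Aqp1 was 9.34-fold lower (adjusted p = 0.00478, and 4.73e-05 without sample 1) in 5 of 6 samples. Aqp1 lost its call in a fit of samples 1 to 3. Of the pumps that move calcium, Atp2c2 of the secretory pathway was 4.58-fold higher (adjusted p = 7.41e-05) and Atp2b1 of the plasma membrane was 12.6-fold lower (adjusted p = 0.000258). Trpc6, a receptor-operated calcium channel, was 5.09-fold higher (adjusted p = 0.000105), with 26.8% of its span shared.

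Subunits of the vacuolar proton pump were higher for 11 of 19 and lower for 2. Atp6v1b1, the form of the B subunit found in acid-secreting cells, was at 212, 588 and 671 CPM in AP and at 15.3, 32.4 and 54.3 CPM in HSL, 15.8-fold lower (adjusted p = 0.00019). Carbonic anhydrases, which turn carbon dioxide into bicarbonate and protons, were lower for 7 of 13 and higher for 1. Car12, on the cell surface, was 29.7-fold lower and Car2, in the cytosol, 21.5-fold lower (adjusted p = 8.22e-05 and 0.000199).

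**Figure D2:**
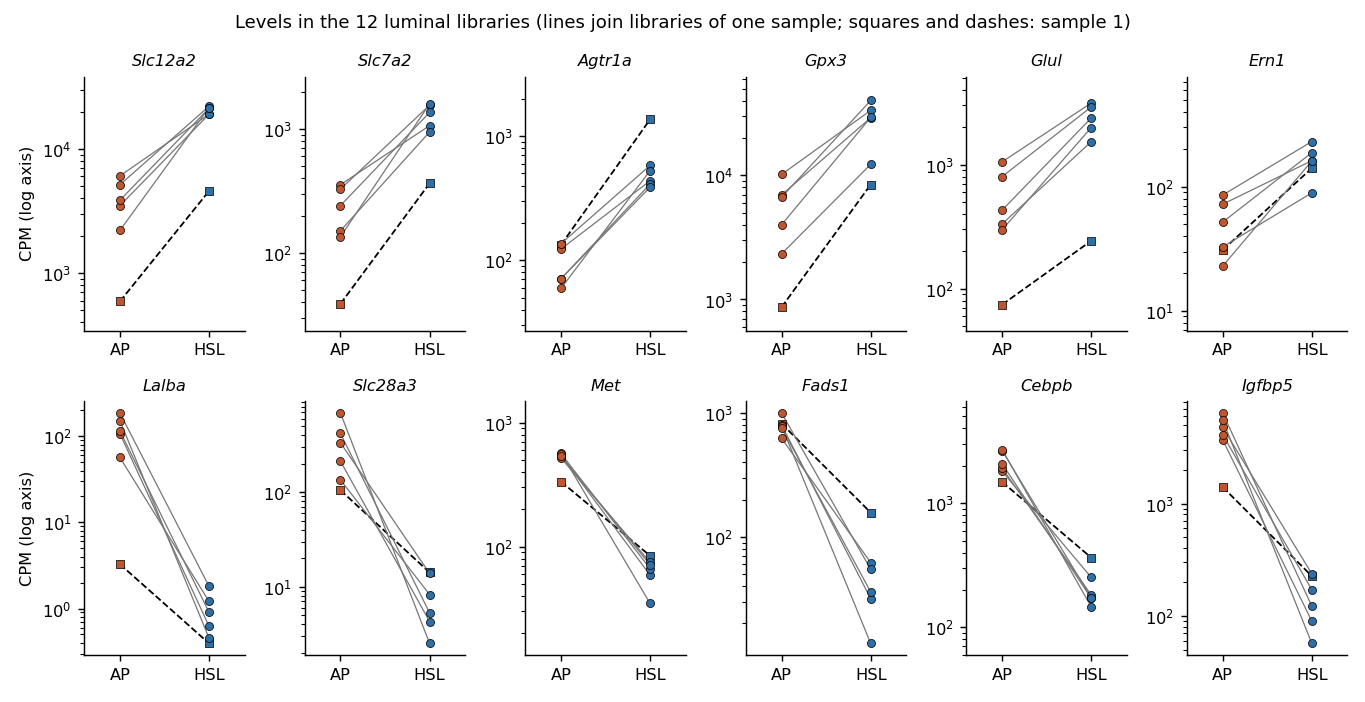
Levels in CPM on log axes (y) of 12 genes in the AP and HSL libraries (x), with a line joining the libraries of one sample number and squares for sample 1. Every line of Slc12a2, Slc7a2, Agtr1a, Gpx3, Glul and Ern1 climbs from AP to HSL, and every line of Lalba, Slc28a3, Met, Fads1, Cebpb and Igfbp5 descends.

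Of 18 genes of polyamine and creatine metabolism, the list that holds the arginases, 4 were higher in HSL and 5 lower (median 0.08), close to the shares over all genes. Arg1 and Arg2, the arginases that split arginine into ornithine and urea, were 6.06-fold and 5.05-fold higher in HSL (adjusted p = 4.1e-05 and 5.64e-05). Glul, glutamine synthetase, was at 74.3, 381 and 1052 CPM in AP and at 243, 2181 and 3132 CPM in HSL, 4.26-fold higher (adjusted p = 5.91e-05). It was higher in each of the 6 samples, and the groups overlapped through the low value of HSL sample 1. Got1, a transaminase of aspartate, and Cbs, the first enzyme from homocysteine to cysteine, were 4.26-fold and 4.91-fold higher (adjusted p = 4.1e-05 and 6.11e-05). Of the 20 genes of amino acid synthesis 7 were higher and 2 lower.

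Glycolytic and lipid enzymes differed in sign within their pathways. Of 20 glycolytic genes 6 were higher and 5 lower. Hk2, a hexokinase, and Pkm, pyruvate kinase, were 4.17-fold and 2.18-fold higher (adjusted p = 9.03e-05 and 0.000117). Aldoc, an aldolase, Pfkp, a phosphofructokinase, and Ldhb, a lactate dehydrogenase subunit, were 3.99-fold, 3.44-fold and 28.7-fold lower (adjusted p = 7.68e-05, 7.02e-05 and 0.000142). Of 19 genes of fatty acid and triglyceride synthesis 5 were higher (26.3%) and 8 lower (42.1%). Fads1, a desaturase of polyunsaturated fatty acids, was at 624, 793 and 999 CPM in AP and at 13.8, 45.4 and 157 CPM in HSL, 17.5-fold lower (adjusted p = 0.000145), and its neighbour Fads2 was 15.9-fold lower (adjusted p = 0.000157). The HSL values of both genes were highest in sample 1 and remained below all AP values. The stearoyl-CoA desaturases differed in sign. Scd2 was 3.74-fold higher (adjusted p = 4.1e-05), and Scd1 was 6.59-fold lower (adjusted p = 0.00138). Dgat2, the last enzyme of triglyceride synthesis, was 5.06-fold higher (adjusted p = 4.17e-05) and Acsl1, which activates long fatty acids, 9.35-fold lower (adjusted p = 7.38e-05).

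Respiratory chain and quality-control genes were higher by small amounts. Of 35 subunits of complex I 22 were higher, with a median log2 difference of 0.37 over the family, and of 38 subunits of complexes III to V 25 were higher and 2 lower (median 0.48). Ndufa7 of complex I and Cox5a of complex IV were 1.79-fold and 1.78-fold higher (adjusted p = 6.28e-05 and 0.000407). The 10 tested genes of the mitochondrial genome had log2 differences of 0.15 to 0.62 and 0 passed in edgeR, where 3 had an unadjusted p under 0.05. Of these 10 genes 4 were called by DESeq2 and 1 by limma-voom. Of 20 genes of the tricarboxylic acid cycle 10 were higher and 3 lower, and 2 of each with samples 1 to 3 alone. Of 36 proteasome subunits 23 were higher (median 0.33), with Psmd5 at 1.75-fold (adjusted p = 0.000199). In a fit of samples 1 to 3 alone, 4 members of complex I and 1 of the proteasome were called higher, and of complexes III to V 0 were called by edgeR with 13 at an unadjusted p under 0.05. Cox5a lost its call there. The proteasome count was 15 without sample 2 and 15 without sample 3. Without sample 1 the higher members numbered 29 for complex I, 30 for complexes III to V, 30 for the proteasome and 14 for the tricarboxylic acid cycle. Cytosolic ribosomal proteins did not share the direction, with 5 of 76 higher and 15 lower (median -0.07), and 9 higher and 14 lower without sample 1.

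Genes of the unfolded protein response and of folding in the endoplasmic reticulum were higher for 15 of 20 and lower for 3 (median 0.55). Ern1, the sensor that splices the Xbp1 message, was at 22.9, 42.2 and 85.6 CPM in AP and at 89.2, 162 and 231 CPM in HSL, 3.51-fold higher (adjusted p = 0.000219). The HSL values were above all AP values. Dnajc3, a chaperone, Pdia6, a disulfide isomerase, and Creb3l2, a membrane-bound transcription factor, were 1.74-fold, 1.95-fold and 2.21-fold higher (adjusted p = 0.000247, 0.00071 and 0.000619). Atf4, a factor of another arm of the stress response, was 2.13-fold lower (adjusted p = 4.73e-05). With samples 1 to 3 alone 5 members were called higher, and Pdia6 lost its call.

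Redox genes went both ways, with 9 of 20 antioxidant and NRF2 genes higher and 6 lower. Gpx3, the secreted glutathione peroxidase, was at 866, 5323 and 10173 CPM in AP and at 8430, 29218 and 40132 CPM in HSL, 5.61-fold higher (adjusted p = 7.08e-05). It was the gene with the most counts in HSL libraries 2, 3, 4 and 6, with 2.67% to 3.55% of all counts, and in HSL library 1, with 0.972%. Gclc, the first enzyme of glutathione synthesis, was 4.15-fold higher (adjusted p = 4.1e-05) and Aldh3a2, which oxidises fatty aldehydes, 3.46-fold higher (adjusted p = 4.1e-05). Nqo1, a quinone reductase, was 16.5-fold lower (adjusted p = 0.000126), and Mgst1, a membrane glutathione transferase, 11.4-fold lower (adjusted p = 5.47e-05). Of 26 aldehyde dehydrogenases and aldo-keto reductases 13 were higher and 7 lower.

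Retinoid and vitamin D genes were lower for 9 of 16 and higher for 3. Aldh1a3, which makes retinoic acid, was at 278, 1438 and 1861 CPM in AP and at 51.3, 84.7 and 103 CPM in HSL, 14.1-fold lower (adjusted p = 0.000321). Crabp2, a carrier of retinoic acid, was 14.4-fold lower (adjusted p = 0.000107). Cyp24a1, named above, was 66.8-fold lower (adjusted p = 0.000136). Eicosanoid enzymes went both ways, with 6 of 18 higher and 7 lower. Alox15, a lipoxygenase, was 4-fold higher (adjusted p = 0.000181), Ptges, a prostaglandin E synthase, 4.78-fold lower (adjusted p = 0.000295), and Hpgd, which breaks prostaglandins down, 5.82-fold lower (adjusted p = 0.00137). Ptgs2, an inducible cyclooxygenase, was 11.1-fold lower (adjusted p = 0.00334, and 3.63e-05 without sample 1) in 5 of 6 samples. Ptgs2 lost its call with samples 1 to 3 alone.

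**Figure D3:**
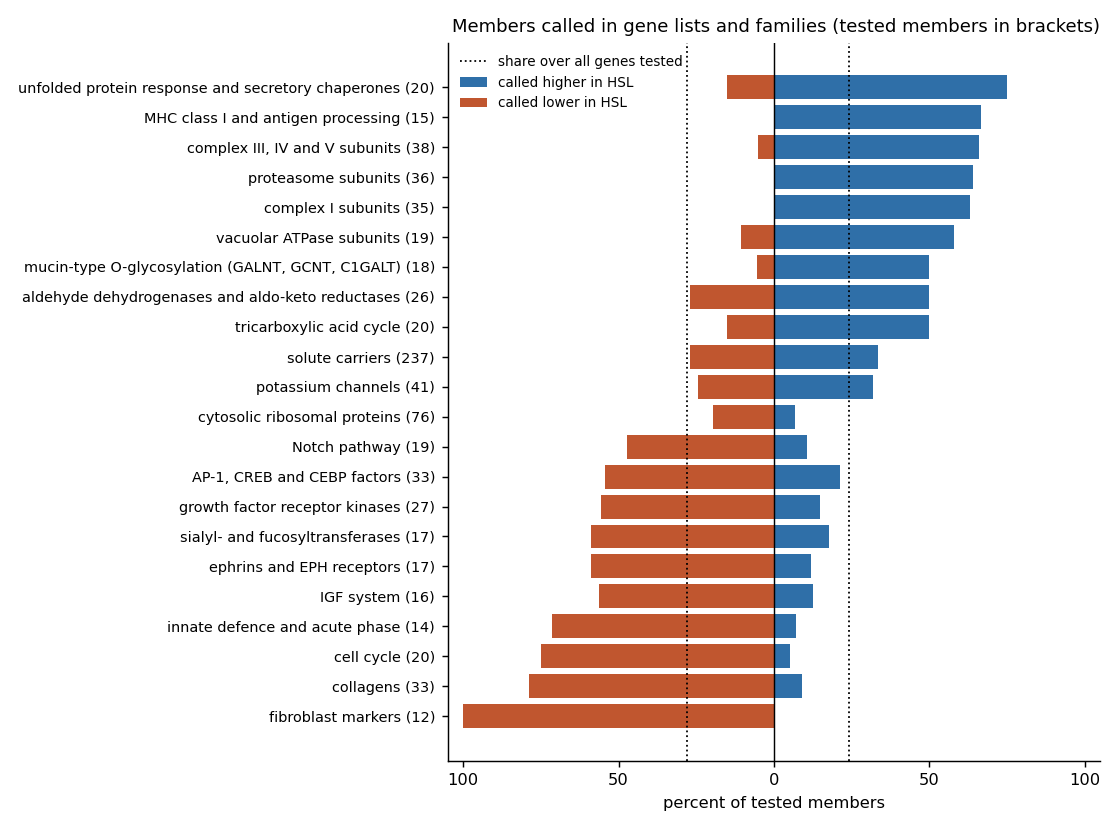
Percent of tested members (x axis) called higher in HSL (right) and lower in HSL (left) for 22 gene lists and families (y axis, tested members in brackets). Dotted lines mark 24.1% and 28.0%, the shares over all genes tested. The 22 were selected for display from 46 lists and 74 families and need not be typical of them. The unfolded protein response list reaches 75% on the right, and the collagens reach 78.8% on the left.

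Milk and defence genes were lower in HSL. Of 15 genes of milk synthesis 12 were lower and 2 higher (median -3.47). Lalba, the subunit of lactose synthase, lies on chromosome 15 (GRCm38, 98480400 to 98482721, minus strand). Lalba was at 3.27, 111 and 186 CPM in AP and at 0.394, 0.764 and 1.81 CPM in HSL, 90.8-fold lower (SE 0.62 on the log2 scale, adjusted p = 9.84e-05). The AP library of sample 1 held far less than the other 5, which began at 56.7 CPM, and was still above all HSL libraries. Mfge8, a milk fat globule protein, was at 7159, 11040 and 14766 CPM in AP and at 413, 597 and 1736 CPM in HSL, 15.5-fold lower (adjusted p = 0.000146). Of 14 genes of innate defence and the acute phase 10 were lower and 1 higher (median -2.34). Lcn2, which binds bacterial siderophores, was 28.1-fold lower, Lbp, which binds lipopolysaccharide, 31.9-fold lower, and its partner receptor Cd14 17.9-fold lower (adjusted p = 0.000146, 9.87e-05 and 0.000108). Ltf, lactoferrin, was 5.18-fold lower (adjusted p = 0.0044, and 4.3e-05 without sample 1) in 5 of 6 samples. Ltf lost its call with samples 1 to 3 alone. The exception was Hp, haptoglobin, which was 3.6-fold higher (adjusted p = 8.12e-05).

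Cp, the copper protein ceruloplasmin, of the same list, was 21.3-fold lower (adjusted p = 0.000152; 25.3% of its span shared). Complement genes were lower for 9 of 19 and higher for 1. C3, the central complement component, was 19.8-fold lower and Clu, clusterin, 3.65-fold lower (adjusted p = 0.000121 and 7.92e-05). Chil1, a chitinase-like protein, was 62.3-fold lower (adjusted p = 0.000228), and Fcgbp, a mucus protein, 9.23-fold lower (adjusted p = 0.000275). Wfdc2, a protease inhibitor, was 5.77-fold higher (adjusted p = 6.23e-05), and the chemokine Cxcl15 was 5.46-fold higher (adjusted p = 7.27e-05), whereas the chemokine Cx3cl1 was 3.02-fold lower (adjusted p = 9.3e-05). Of 20 NF-kB genes 11 were lower and 3 higher (3 lower with samples 1 to 3 alone), and the subunit genes Rela and Nfkb1 were 1.96-fold and 2.28-fold lower (adjusted p = 8.72e-05 and 0.000544). Of 15 genes of the MHC class I list 10 were higher (median 0.57), while of 9 tested genes of the class II list 1 was higher and 8 were not called (median -0.14). Tap2, a peptide transporter with 39.6% of its span shared, was 2.03-fold higher (adjusted p = 0.00246, and 1.55e-05 without sample 1) in 5 of 6 samples. The exception for Tap2 was sample 1, with 174 CPM in AP and 161 CPM in HSL. The class I count of 10 became 5 without the block, 1 with samples 1 to 3 alone, and 6 without any one of samples 2, 3, 4 or 5, and Tap2 lost its call with samples 1 to 3 alone.

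Of 5 mucins tested, 2 were higher and 3 lower. Muc1 was at 108, 388 and 477 CPM in AP and at 16, 30.7 and 42.6 CPM in HSL, 11.1-fold lower (adjusted p = 0.000262), and Muc20, with 24.8% of its span shared, was 16.8-fold lower (adjusted p = 0.000452). Muc13 and Muc16 were 5.98-fold and 9.51-fold higher (adjusted p = 0.000106 and 0.00468), both with overlapping libraries, and Muc16 lost its call with samples 1 to 3 alone. The enzymes that start and extend O-linked chains were higher for 9 of 18 and lower for 1, with Gcnt2 and C1galt1 3.83-fold and 2.02-fold higher (adjusted p = 7.38e-05 and 0.000211). Enzymes that add sialic acid or fucose were lower for 10 of 17 and higher for 3. St3gal1 and St3gal4 were 3.77-fold and 3.93-fold higher (adjusted p = 0.000289 and 8.37e-05), while Fut9 was 33-fold lower (adjusted p = 0.000216). Chst1, a sulfotransferase of glycan chains, was 27.2-fold lower (adjusted p = 4.96e-05).

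Of 13 tested ligands linked to progesterone or to paracrine signalling, 7 were higher and 1 lower. Without the block 4 were higher, and without sample 1 the counts were 7 higher and 3 lower. Areg was at 115, 201 and 612 CPM in AP and at 610, 1173 and 1591 CPM in HSL, 5.25-fold higher (adjusted p = 0.00014). The lowest HSL value, of sample 3, lay just under the highest AP value, of sample 2. Wnt4 was at 40.3, 55.6 and 123 CPM in AP and at 255, 344 and 498 CPM in HSL, 5.56-fold higher with no overlap (adjusted p = 7.89e-05). Wnt5a and Ptn, the heparin-binding factor pleiotrophin, were 4.87-fold and 4.92-fold higher (adjusted p = 0.000101 and 4.17e-05). Adam10, the protease that sheds membrane ligands, was 3.51-fold higher (adjusted p = 4.1e-05).

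Receptor kinases for growth factors were lower for 15 of 27 and higher for 4 (median -1.48). Met, the receptor of hepatocyte growth factor, was at 334, 542 and 569 CPM in AP and at 34.8, 68.9 and 84.3 CPM in HSL, 8.02-fold lower (adjusted p = 5.9e-05). All AP values were above all HSL values. Fgfr2, Ror2, a Wnt5a receptor, and Erbb2 were 3.38-fold, 4.88-fold and 1.89-fold higher (adjusted p = 7.66e-05, 5.01e-05 and 0.000142), with 58.2% of the span of Fgfr2 shared. EPH receptors and ephrins, which signal at cell contacts, were lower for 10 of 17 and higher for 2, with Epha7 and Ephb2 4.97-fold and 8.08-fold lower (adjusted p = 5.01e-05 and 0.000101). Insulin-like growth factor genes were lower for 9 of 16 and higher for 2. Irs2, the insulin receptor substrate, was 4.95-fold lower (adjusted p = 0.000269) and Igf2r, which takes up the second of these factors, 2.31-fold higher (adjusted p = 0.000254; 32.5% of its span shared). Bmpr1b, a receptor of bone morphogenetic proteins, was 7.76-fold higher (adjusted p = 0.000542), and of the TGF-beta genes Tgfb1 was 3.33-fold higher (adjusted p = 0.000106) while Tgfb2 and Tgfb3 were 17.3-fold and 5.78-fold lower (adjusted p = 0.000178 and 4.91e-05).

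Agt was at 31.5, 93.0 and 126 CPM in AP and at 0.453, 1.74 and 4.27 CPM in HSL, 40.5-fold lower (SE 0.61 on the log2 scale, adjusted p = 0.000217). Agtr1a, the receptor of the peptide made from angiotensinogen, was at 59.3, 96.9 and 136 CPM in AP and at 388, 482 and 1366 CPM in HSL, 5.94-fold higher (adjusted p = 6.24e-05). Neither gene overlapped between the populations, and 14.7% of the span of Agtr1a is shared. In the Notch pathway 9 of 19 genes were lower and 2 higher. The higher genes were Jag1, a ligand, and Lfng, the enzyme that modifies Notch receptors, 4.83-fold and 5.36-fold higher (adjusted p = 0.0001 and 9.42e-05). The target Hey1 was at 218, 322 and 426 CPM in AP and at 4.47, 12.1 and 25.4 CPM in HSL, 25.8-fold lower, and Heyl was 20.7-fold lower (adjusted p = 9.36e-05 and 8.31e-05). In the Wnt pathway 7 of 27 genes were higher and 13 lower. Fzd4, a receptor, was 3.47-fold higher (adjusted p = 0.000102), and Tcf7l2, a nuclear effector, 5.98-fold lower (adjusted p = 7.93e-05).

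Receptors of amines and peptides were lower for 11 of 23 and higher for 7 (4 higher without the block). Adrb1, the beta-1 adrenergic receptor, was 5.45-fold higher (adjusted p = 0.000278), and Oxtr, the oxytocin receptor, was 6.68-fold lower (adjusted p = 5.47e-05). Phosphodiesterases and adenylate cyclases, which set cyclic AMP, were lower for 13 of 26 and higher for 5 (3 higher without the block), with Pde4b 9.06-fold lower (adjusted p = 0.000145). Dual specificity phosphatases and Sprouty proteins were higher for 8 of 25 and lower for 8 (median 0.06). Among the lower members, the MAP kinase phosphatases Dusp5 and Dusp6 were 14.6-fold and 4.14-fold lower (adjusted p = 0.00013 and 7.08e-05).

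Both libraries of sample 1 stood far from the others for Calca, Tnfsf11 and Rspo1. Calca, which encodes calcitonin and its related peptide, was at 292 CPM in AP library 1 and at 0.0328 to 2.25 CPM in the other 5. Calca was at 2666 CPM in HSL library 1 and at 0.281 to 13.8 CPM in the other 5. Tnfsf11, the ligand RANKL, was at 57.1 CPM in AP library 1 and at 0 to 1.58 CPM in the rest, and at 602 CPM in HSL library 1 and at 0.13 to 6.1 CPM in the rest. With sample number as a block Calca was 6.51-fold and Tnfsf11 5.87-fold higher (adjusted p = 4.1e-05 and 0.00253), and without sample 1 their log2 differences were 2.50 and 2.49 (adjusted p = 9.7e-05 and 0.031) against 2.70 and 2.55 with it. Without the block neither Calca nor Tnfsf11 passed (adjusted p = 0.283 and 0.213), and Tnfsf11 also lost its call with samples 4 to 6 alone. Tnfrsf11a, the receptor RANK, was at 41.8, 50.2 and 65.7 CPM in AP and at 1.06, 3.58 and 12.9 CPM in HSL, 12.7-fold lower (adjusted p = 0.000258), and AP library 1 was within the range of the others. Rspo1, which amplifies Wnt signals, was 14.2-fold lower (adjusted p = 0.000108), with 384 CPM in AP library 1 and 11.4 to 45.6 CPM in the other 5. It lost its call without the block.

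**Figure D4:**
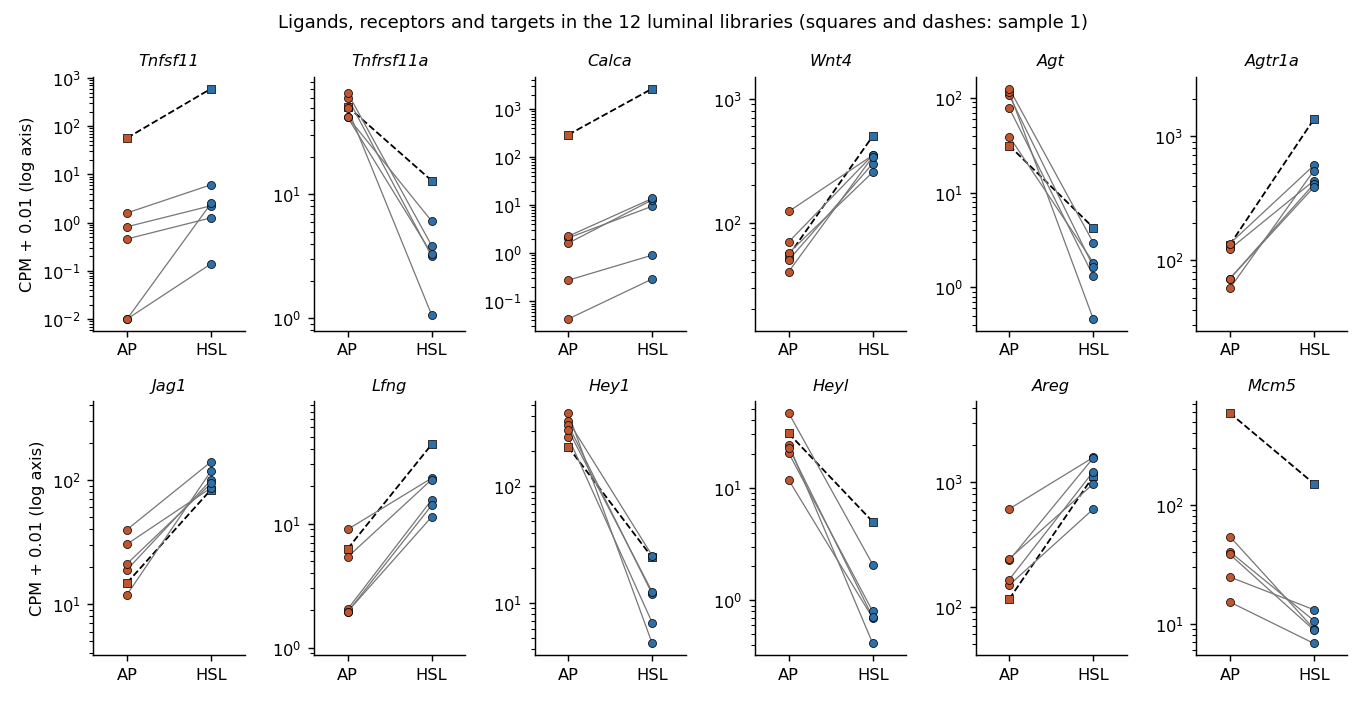
Levels in CPM plus 0.01 on log axes (y) of ligands, receptors and targets and of Mcm5 in the AP and HSL libraries (x), with a line for each sample number and squares for sample 1. Tnfsf11, Calca and Mcm5 have both squares far above the circles of the same population, while for Tnfrsf11a and Jag1 the AP squares lie within the range of the circles.

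Cell cycle genes were lower for 15 of 20 and higher for 1 (median -1.86), and this count rested on the block. Their summed level was 3830 CPM in AP library 1 and 228 to 566 CPM in the other AP libraries, and 1085 CPM in HSL library 1 and 206 to 334 CPM in the other HSL libraries. Mcm5, a subunit of the replicative helicase, was at 593 CPM in AP library 1 and at 15.2 to 54.1 CPM in the rest, and was 3.44-fold lower in HSL (adjusted p = 0.000271, and 0.171 without the block). Top2a, a topoisomerase of dividing cells, was 5.33-fold lower (adjusted p = 0.00114), and the only higher gene was Aurka, a mitotic kinase (2.01-fold, adjusted p = 0.0135). Aurka was higher in 5 of 6 samples, with 33.3 CPM in AP and 27.1 CPM in HSL of sample 1, and lost its call without the block and with samples 1 to 3 alone. Without sample 1 the counts were 16 lower and 2 higher. Without the block edgeR called 0 of the 20, with 4 lower at an unadjusted p under 0.05, and with it DESeq2 called 17 lower and limma-voom 18.

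Spdef, an ETS factor, Tbx3, a T-box factor, and Esrrb, an orphan nuclear receptor, were 4.35-fold, 3.73-fold and 5.8-fold higher (adjusted p = 0.000212, 0.000101 and 0.000219). Cebpb was at 1483, 1999 and 2706 CPM in AP and at 146, 178 and 364 CPM in HSL, 10.2-fold lower (adjusted p = 7.36e-05), with 60.4% of its span shared. The family of AP-1, CREB and CEBP factors was lower for 18 of 33 and higher for 7 (4 higher without the block). Sox10 was 21.8-fold, Foxc1 15.7-fold and Tfap2c 9.91-fold lower (adjusted p = 0.000249, 5.91e-05 and 7.38e-05). Among nuclear receptors, the orphan receptor Nr4a2 was 21.5-fold lower and the glucocorticoid receptor Nr3c1 3.7-fold lower (adjusted p = 0.000302 and 0.000103). Clock genes were lower for 9 of 17 and higher for 6, with Cry1 and Hlf 5.71-fold and 10.5-fold lower and Nfil3 2.75-fold higher (adjusted p = 9.36e-05, 0.000107 and 7.59e-05). Of 320 zinc finger genes of the ZFP series 32 were higher and 82 lower. Regulators of apoptosis were higher for 6 of 17 and lower for 5 (median 0.05). The lowest of them was Bcl2, which blocks apoptosis and was 23.5-fold lower (adjusted p = 0.000153, with 20% of its span shared).

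Genes that respond to tissue dissociation were lower for 10 of 16 and higher for 3, and lower for 1 and higher for 2 with samples 1 to 3 alone. Egr2 was 3.88-fold lower (adjusted p = 0.000709), Hspa1b, a heat shock chaperone, 2.39-fold higher (adjusted p = 9.84e-05), and Atf3 1.51-fold higher (adjusted p = 0.00214). Egr2 and Atf3 lost their calls with samples 1 to 3 alone, and Atf3 also without the block. Summed over the list, AP libraries ranged from 9204 to 19291 CPM and HSL libraries from 11480 to 16760 CPM. The part of this response in the other results was not tested.

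Keratins were higher for 10 of 22 and lower for 5, with Krt7 4.04-fold and Krt19 2.22-fold higher (adjusted p = 4.1e-05 and 0.000132). Of the claudins, which seal tight junctions, 3 of 12 were higher and 7 lower, with Cldn6 6.15-fold higher and Cldn1 20.6-fold lower (adjusted p = 6.24e-05 and 9.89e-05). Collagens were lower for 26 of 33 and higher for 3 (median -3.07). Col9a1 was at 8.38, 46.8 and 79.7 CPM in AP and at 0, 0.479 and 1.04 CPM in HSL, 70.3-fold lower (adjusted p = 0.000111), and Col9a2 was 34-fold lower (adjusted p = 0.000341). The higher collagens were Col8a1 (5.11-fold, adjusted p = 6.11e-05), Col8a2 (4.49-fold, adjusted p = 0.000506) and Col6a3 (2.59-fold, adjusted p = 0.0264). Col6a3 lost its call without any one of samples 2 to 6, and without sample 1 its adjusted p was 0.000391. Among laminins Lama5 was 3.45-fold higher (adjusted p = 0.000289), while Lama4 and Lamb1 were 11.1-fold and 3.41-fold lower (adjusted p = 4.52e-05 and 0.00204).

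All 12 fibroblast markers were lower in HSL (median -4.32), among them Col1a1, Col3a1, Lum, Dcn and the receptor Pdgfra. Summed, they ranged from 712 to 1783 CPM in AP, from 45.5 to 127 CPM in HSL and from 1170 to 2098 CPM in the basal libraries, and none of the 12 was at 0. Col1a1 was 21.6-fold lower and Col3a1 19.6-fold lower (adjusted p = 0.000375 and 0.000111). Sfrp2, a secreted Wnt regulator that is not on that list, was 31.7-fold lower (adjusted p = 0.000169). Basal markers, Oxtr, Igfbp5 and Lgr6 among them, were lower for 11 of 18, and their sums ranged from 2243 to 7128 CPM in AP, from 237 to 666 CPM in HSL and from 38775 to 68175 CPM in the basal libraries. Igfbp5, which binds insulin-like growth factors, was at 1404, 4438 and 6404 CPM in AP and at 56.8, 146 and 237 CPM in HSL, 29.9-fold lower (adjusted p = 0.000155), beside 2917 ± 713 CPM (SD, n = 6) in the basal libraries. Lgr6, a receptor of R-spondins, was 16.6-fold lower (adjusted p = 0.000162). The defining basal keratins Krt14 and Krt5 had medians of 24.2 and 11 CPM in AP and 8.85 and 3.95 CPM in HSL, with no call (adjusted p = 0.0726 and 0.393), beside means of 7167 and 3132 CPM in the basal libraries. Of the Schwann cell list 4 of 6 tested genes were lower, among them Ncam1 and Sox10 (33.4-fold and 21.8-fold). Leukocyte markers summed to 11.7 to 118 CPM in AP and 6.24 to 169 CPM in HSL, and endothelial markers to 66.0 to 149 CPM and 138 to 255 CPM. The part of such cells in the matrix, growth factor and receptor results was not tested.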

How the data were processed

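RNA-seq of sorted mammary cells was analysed in 12 of 18 libraries. The authors deposited read counts per gene and RPKM values for each library. Only the counts were used. GRCm38 is the build that the submitters' processing notes name. Aligner and counter: not given in the sources used here. GENCODE M21 lacked 147 of the 52636 gene identifiers, which held at most 0.00677% of a library's counts. Genes were filtered with filterByExpr (minimum count 10) and scaled by TMM. They were tested with edgeR 4.0.16 in R 4.3.3 (quasi-likelihood, robust), with population as the term and sample number as a block. P-values were Benjamini-Hochberg adjusted over all genes, with a threshold of 0.05. CPM values use the scaled library sizes. AP and HSL levels were scaled among the 12 luminal libraries and basal levels among all 18, so basal levels are only roughly comparable with the others.

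After subtracting each population's mean, libraries that share a number were correlated (r 0.17 to 0.59). Each AP library matched the HSL library of its own number best, so the numbers were taken to pair the libraries. The margin was narrow for sample 6 (0.17 against 0.11 for the next best number) and sample 4 (0.3 against 0.22). Counts were simulated for 15285 genes, with 50 genes changed at each fold. Of genes changed 1.5-fold 16.3% were recovered, of those at 2-fold 39.6%, at 4-fold 84% and at 8-fold 97.9%, and 2.52% of calls were false. The simulation held no difference between sample numbers, and far fewer genes were changed than were called here. These rates therefore need not hold for the real libraries. Alternatives were no block, all 18 libraries, DESeq2 1.42.0, limma-voom 3.58.1, other scaling, other filters, each sample left out, and samples 1 to 3 or 4 to 6 alone. The members, gene lists and tests were chosen with earlier results of these data known. Genes could be named if they were a gate or lineage marker gene, among the 15 largest folds per direction (mean of at least 20 CPM, no overlap, same sign in 6 pairs), among the 10 largest CPM differences or on and off genes per direction, or among the 4 called members with the smallest adjusted p per direction or the 2 most abundant uncalled members of a list or family with at least 5 tested members.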

Additional observations from a re-analysis of the deposited data

Results flagged for a closer look

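Single libraries were tested against the other 5 of their population with Dixon's ratio on log2(CPM + 0.5) for the 173 named genes. Of 346 groups tested, 55 held a library whose gap passed the critical value (15.9%), where chance gives about 1 in 20. The library was AP 1 in 24 groups and HSL 1 in 28, and AP 5, AP 6 and HSL 5 in 1 each. Values are in CPM.

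HSL library 1 held the lowest level of Prlr (1175), Slc7a2 (364), Wfdc2 (834), Slc12a2 (4578), Cd164 (3318), Slco2a1 (474), Glul (243) and Dgat2 (431). The lowest HSL level was that of library 1 for Alox15 (13.8), Gclc (368), Tap2 (161), Muc13 (1.81), Col6a3 (11.5), Cxcl15 (217), Pgr (98.9) and Atf3 (1381). For Trpc6 (11.3), HSL library 1 was the lowest. HSL library 1 held the highest level of Agtr1a (1366), Kcnn4 (58.3), Ldhb (4.18), Ptgs2 (4.52), Fut9 (2.35), Oxtr (47.4) and Calca (2666). The highest HSL level was that of library 1 for Tnfsf11 (602), Spdef (108), Mcm5 (151) and Ephb2 (8.01). For Lalba (3.27), Chil1 (66.6), Igfbp5 (1404), Krt19 (2811), Aqp5 (311), Ptn (355), Abcc8 (7.99) and Atp6v1b1 (212), AP library 1 was the lowest. AP library 1 held the lowest level of Aqp1 (18.8), Got1 (26.4), Gclc (88.5), Tap2 (174), C1galt1 (60.1), St3gal1 (5.01), Ror2 (2.21) and Met (334). The lowest AP level was that of library 1 for Krt7 (355), Ltf (145), Pinc (1.08), Cxcl15 (24.1) and Trpc6 (1.1). For Atp2c2 (159), HSL library 5 was the highest. AP library 6 held the lowest level of Scd2 (29.2). The highest AP level was that of library 1 for Calca (292), Tnfsf11 (57.1) and Mcm5 (593). For Fut9 (23), AP library 5 was the highest.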

How the results depend on the processing

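Counts of called genes were recomputed under 16 alternative settings. Genes higher in HSL (3684) numbered 1499 and lower genes (4279) 2068 in a fit of samples 1 to 3 only, and 3244 and 3573 in one of samples 4 to 6 only. At a mean of 5 CPM or more, 820 genes were higher and 1368 lower by at least 2-fold, with fewer genes tested (10291). Leaving out each sample in turn gave 3170 to 4135 higher and 3679 to 4591 lower genes, and 1270 to 1403 and 2156 to 2575 at 2-fold. Without the replicate block 2966 genes were higher and 3419 lower, with 1252 and 2082 at 2-fold. When libraries were scaled by their totals alone, the share of calls that were higher fell from 46.3% to 37.6% and the median of all genes from -0.05 to -0.16. No called direction reversed in 2768 pairs of named gene and setting, of which 24 lost a call and 7 gained one. Of 169 called named genes 153 kept their call in all settings. Calls were lost for 7 genes without the block and for 11 with samples 1 to 3 only. Other causes were not tested. Low levels limit the precision of folds for genes with HSL values near 0. Genes whose whole span another gene shares were at 0 in all 18 libraries for 1161 of 1347 protein-coding genes (86.2%), so a 0 there is no measure of expression.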
